A study of Mus musculus with 6 samples.

Results

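Expression of 10 genes of αβ T cells was examined in whole lung, in all 6 libraries of the series. The genes are Cd3e, Cd3d, Cd3g, Cd4, Cd8a, Cd8b1, Cd28, Icos, Lck and Foxp3, chosen by symbol as genes of T cells. All 10 were found among the 40842 named reference genes of the gene tables. The control group is 3 libraries of untreated wild-type female C57BL/6N mice (control 1 to 3). The irradiated group is 3 libraries of mice of the same strain, sex and genotype that were given 20 Gy of 9 MeV electrons in a single dose (irradiated 1 to 3). Every library is from the 100-day time point. The labels give no age of the mice and no field of exposure. Whether each library is a different mouse is not stated either; the tests therefore weigh differences against the scatter among libraries, and that scatter may be technical.

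αβ T cells recognise peptides on MHC molecules through a receptor of an α and a β chain, which signals through the CD3 chains. The co-receptor CD4 marks helper cells, which see MHC class II, and CD8, a pair of α and β chains, marks cytotoxic cells, which see MHC class I. The kinase LCK is carried by the co-receptors and starts the signal, and CD28 and ICOS deliver the costimulation that a T cell needs beside it. FOXP3 is the transcription factor of regulatory T cells, which restrain immune responses, and in the lung T cells reside in the tissue as well as pass through its blood vessels.

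In irradiated lung the helper co-receptor gene Cd4, the costimulatory genes Cd28 and Icos and the regulatory gene Foxp3 had higher means than in control lung, while the means of the cytotoxic genes Cd8a and Cd8b1 were nearly equal. The ratio of the irradiated to the control mean was 3.95 for Foxp3, 1.91 for Icos, 1.82 for Cd4 and 1.67 for Cd28. It was between 1.08 and 1.25 for the CD3 chains and Lck, and 1.02 for Cd8a and 1.04 for Cd8b1. None of the 9 genes that could be tested passed over all genes, and Foxp3 was below the level required for the test. The irradiated libraries did not move as a group: irradiated 3 had the highest value of all 6 libraries for 10 of the 10 genes, irradiated 1 exceeded every control for 7 of them, and irradiated 2 did so for 1, Foxp3.

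Levels are given as FPKM, the deposited measure of fragments scaled to transcript length and to the mapped fragments of the library, so genes of different length can be set side by side. The test was limma on log2(FPKM + 1) over the 13908 genes whose mean reached 1 FPKM, with an adjusted p under 0.05 as the threshold. Of the 10 genes, 9 were tested and Foxp3 was below that level. Icos reached it only through the irradiated libraries, its control mean being 0.881 ± 0.190 FPKM (SD, n = 3). Of the 9, 0 passed an adjusted p of 0.05, where 0.18% of all tested genes did and 0.0647% did so with a higher level in irradiated lung. At an unadjusted p under 0.05 it was again 0 of 9, where 17.7% of all tested genes passed with limma. The log2 change, irradiated minus control, was positive for 8 of the 9, with a median of 0.19. Among all tested genes 44.2% had a positive change, and their median was −0.03. Icos is 1 of the 8, and its positive sign follows from how it reached the test level.

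The genes lie in clusters in the mouse genome (GRCm39, coordinates of the files counted from 1). The 3 CD3 genes are on chromosome 9, where Cd3g (44880870 to 44891729) and Cd3d (44893067 to 44898350) point away from each other with 1337 bases between them, and Cd3e (44910033 to 44920961) follows. On chromosome 6, Cd8b1 (71299772 to 71314476) and Cd8a (71350411 to 71356155) are neighbours, and Cd4 (124841656 to 124865210) lies apart. Cd28 (60785547 to 60812521), the inhibitory receptor gene Ctla4 and Icos (60999909 to 61039481) follow each other on chromosome 1. Lck (129442137 to 129467434) is on chromosome 4 and Foxp3 (7445915 to 7461482) on the X chromosome.

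The sequence before the start site is shown for the 3 CD3 genes, which encode subunits of 1 complex, and for Foxp3, the gene with the largest ratio of means. They are 250 bases upstream of the start in RefSeq's table for GRCm38.p6, another build than that of the files, at chr9:44980432-44980681 (Cd3g, minus strand), chr9:44981536-44981785 (Cd3d, plus strand), chr9:45009612-45009861 (Cd3e, minus strand) and chrX:7579426-7579675 (Foxp3, plus strand). That table held 6 of the 10 genes. Capitals mark GGAAGT, the core bound by ETS factors, TGGAAA, the core bound by NFAT, and TATAAA, the TATA box, each on either strand.
Cd3g: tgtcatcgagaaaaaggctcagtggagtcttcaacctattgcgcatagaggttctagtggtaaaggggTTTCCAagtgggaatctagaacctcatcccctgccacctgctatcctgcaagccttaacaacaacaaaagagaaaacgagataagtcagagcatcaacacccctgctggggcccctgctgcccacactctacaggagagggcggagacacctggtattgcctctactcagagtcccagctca
Cd3d: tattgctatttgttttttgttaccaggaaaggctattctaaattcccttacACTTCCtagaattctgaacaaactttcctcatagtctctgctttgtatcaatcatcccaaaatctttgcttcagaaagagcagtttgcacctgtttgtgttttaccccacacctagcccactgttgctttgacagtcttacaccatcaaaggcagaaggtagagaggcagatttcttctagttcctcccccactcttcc
Cd3e: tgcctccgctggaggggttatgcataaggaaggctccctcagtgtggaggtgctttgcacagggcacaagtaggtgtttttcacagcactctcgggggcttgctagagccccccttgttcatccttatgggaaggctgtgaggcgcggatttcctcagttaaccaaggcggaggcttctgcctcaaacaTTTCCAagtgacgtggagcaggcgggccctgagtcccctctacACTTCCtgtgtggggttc
Foxp3: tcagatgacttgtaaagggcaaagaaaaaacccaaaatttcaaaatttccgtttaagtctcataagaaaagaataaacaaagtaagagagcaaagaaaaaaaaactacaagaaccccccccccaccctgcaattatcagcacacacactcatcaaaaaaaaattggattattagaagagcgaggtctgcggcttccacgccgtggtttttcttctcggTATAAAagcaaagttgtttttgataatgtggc
Cd3d and Cd3e each held GGAAGT, which 20.0% of all 27025 promoters of that length hold, and Cd3g and Cd3e each held TGGAAA, which 18.7% hold. Foxp3 held TATAAA, as 13.0% do, and 0 of the 3 CD3 promoters did. The RUNX core TGTGGT, present in 14.2%, was in none of these 4. The E-box CANNTG, not marked here, was present 3 times in Cd3g and 1 time in each of the other 3, and 66.0% of promoters hold it. For Foxp3 the table has another start downstream, whose window is not shown; it held TGGAAA and not TATAAA. The capitals do not overlap each other, and a match of letters is a description of the sequence alone.

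The CD3 chains are signalling subunits of the T cell receptor. Cd3e, the ε chain shared by both CD3 dimers, was at 3.29, 3.68 and 3.41 FPKM over controls 1 to 3, against 4.64, 2.85 and 5.46 FPKM over irradiated 1 to 3. Irradiated 1 and 3 were above every control and irradiated 2 was below every control, so the groups overlapped (log2 change 0.22 ± 0.20 SE, 95% interval −0.24 to 0.69, limma adjusted p = 0.595). Cd3d, the δ chain, was at 3.52, 4.06 and 4.46 FPKM against 4.17, 3.66 and 6.27 FPKM. Only its irradiated 3 lay outside the control range (log2 change 0.16 ± 0.18, 95% interval −0.27 to 0.60). Cd3g, the γ chain and the most abundant of the 10 genes, was at 7.76, 9.98 and 8.66 FPKM against 10.3, 5.89 and 12.3 FPKM. It had the order of Cd3e, with irradiated 2 lowest and irradiated 3 highest of all 6 libraries (log2 change 0.05 ± 0.24, 95% interval −0.53 to 0.63). Summed over the 3 chains the level was 14.6, 17.7 and 16.5 FPKM over the controls, against 19.1, 12.4 and 24.0 FPKM over irradiated 1 to 3. In whole tissue, fewer cells of a type and less RNA per cell cannot be told apart.

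Lck, the kinase that phosphorylates the CD3 chains, was at 7.77, 6.91 and 5.57 FPKM over controls 1 to 3, against 7.89, 5.71 and 10.2 FPKM over irradiated 1 to 3. Its irradiated 3 was well above the controls, irradiated 1 was just above the highest of them, and irradiated 2 was near the lowest (log2 change 0.19 ± 0.20, 95% interval −0.30 to 0.67, limma adjusted p = 0.677). Lck was 1.64 to 2.37 times the level of Cd3e in the controls and 1.70 to 2.00 times in irradiated lung. NK cells also express Lck; their values are given with the cytotoxic genes, and their part in Lck was not tested.

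**Figure D1:**
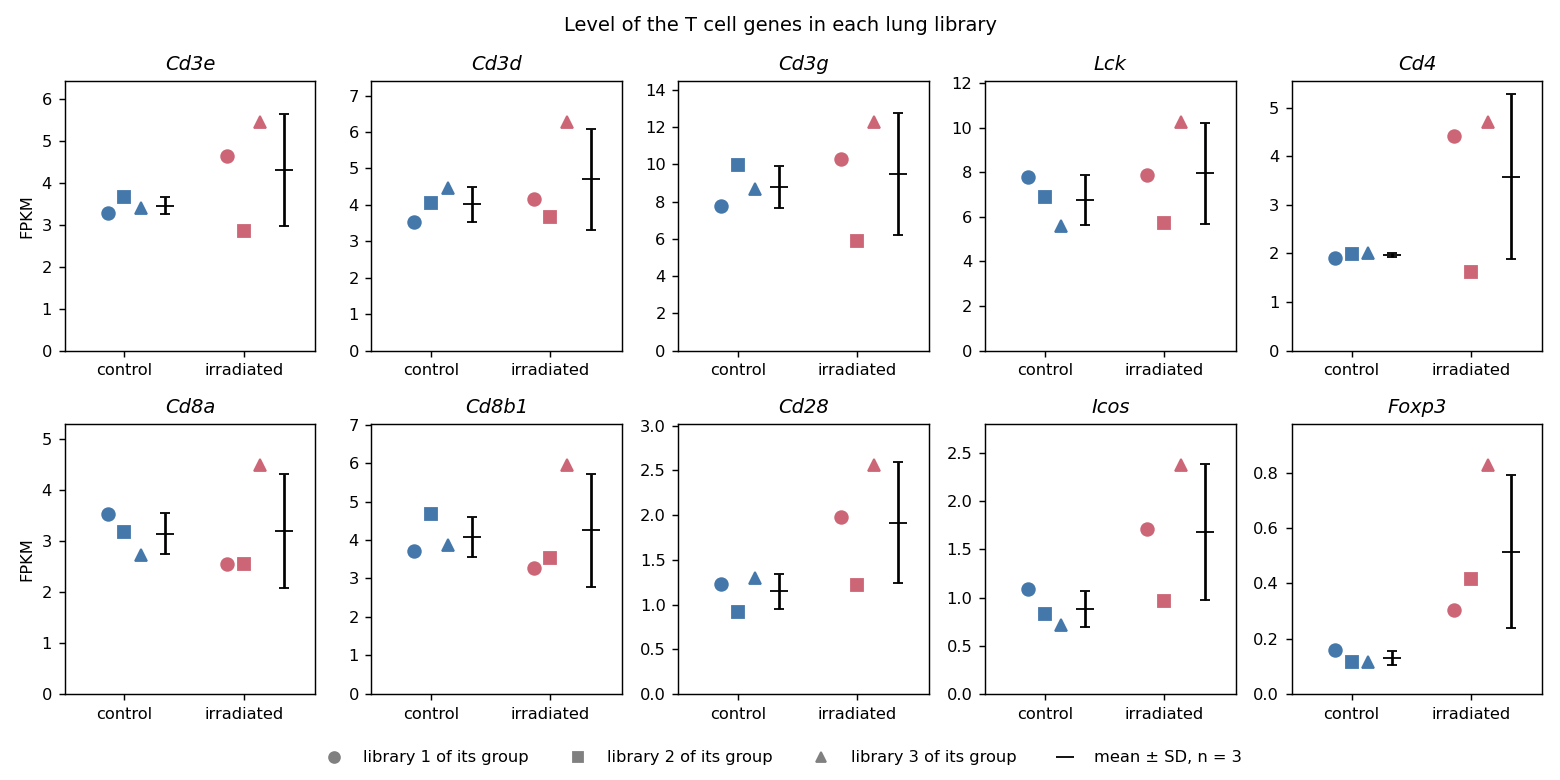
FPKM of the 10 T cell genes (vertical axis, from 0, a separate scale for each gene) in the 3 control (blue) and 3 irradiated (red) lung libraries; the marker shape is the library number and the black bar is the mean ± SD over 3 libraries. Irradiated 3 is the highest library in all 10 panels, and only for Foxp3 do all 3 irradiated points lie above the controls.

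The helper co-receptor gene was high in irradiated 1 and 3 and low in irradiated 2. Cd4 was at 1.91, 1.99 and 2.00 FPKM over controls 1 to 3, against 4.42, 1.63 and 4.70 FPKM over irradiated 1 to 3. Irradiated 1 and 3 exceeded the highest control by a wide margin, and irradiated 2 was below the lowest control. The log2 change was 0.54 ± 0.29 (95% interval −0.16 to 1.25, limma adjusted p = 0.383). Without irradiated 2 it was 0.91 ± 0.11 (limma adjusted p = 0.0856), without irradiated 1 it was 0.38 and without irradiated 3 it was 0.35. The adjusted p of Cd4 ranged from 0.0856 to 0.630 over the alternatives tried with limma. Mouse macrophages and plasmacytoid dendritic cells can also express Cd4. Of 12 monocyte and macrophage genes 11 had positive changes, and their summed level was 144 to 162 FPKM over the controls, against 240, 167 and 196 FPKM over irradiated 1 to 3. The plasmacytoid genes summed to 119 to 136 FPKM against 96.1 to 117 FPKM. Most of that sum was Bst2, at 83.0 ± 9.97 against 66.8 ± 13.3 FPKM. Of their defining markers Siglech was at 1.13 FPKM at most and Ccr9 at 0.412 FPKM at most. The part of either cell type in the Cd4 values was not tested.

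The cytotoxic co-receptor genes overlapped between the groups, as Cd4 did. Cd8a, the α chain, was at 3.53, 3.18 and 2.73 FPKM over controls 1 to 3, against 2.55, 2.56 and 4.49 FPKM over irradiated 1 to 3. Irradiated 1 and 2 were below every control and irradiated 3 was above every control (log2 change −0.01 ± 0.20, 95% interval −0.48 to 0.46, limma adjusted p = 0.987; its sign turned under 3 other scalings). Cd8b1, the β chain, found on conventional cytotoxic T cells, was at 3.70, 4.68 and 3.88 FPKM against 3.28, 3.54 and 5.94 FPKM. It had the same arrangement, with irradiated 1 and 2 below and irradiated 3 above every control (log2 change 0.02 ± 0.20, 95% interval −0.46 to 0.49). The ratio of Cd8a to Cd8b1 was 0.954, 0.678 and 0.703 in the controls and 0.779, 0.723 and 0.756 over irradiated 1 to 3, a log2 difference of −0.03 ± 0.15. Type 1 conventional dendritic cells of the mouse can express Cd8a without the β chain. Their 8 genes summed to 101 to 108 FPKM in the controls and 81.1 to 96.3 FPKM in irradiated lung. Most of the sum was Cadm1, at 45.3 ± 4.12 against 34.2 ± 0.948 FPKM, and Naaa, at 31.0 ± 7.75 against 28.3 ± 4.49 FPKM. Of the 8, 7 were tested, 2 with positive and 5 with negative changes. Wdfy4 was above the controls in every irradiated library, and the marker Xcr1 was at 0.794 ± 0.190 against 0.837 ± 0.384 FPKM. The part of these cells in the Cd8a values was not tested.

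Of the costimulatory receptors, Cd28, which answers CD80 and CD86 on presenting cells, was at 1.23, 0.921 and 1.29 FPKM over controls 1 to 3, against 1.98, 1.22 and 2.56 FPKM over irradiated 1 to 3. Irradiated 1 and 3 were above every control and irradiated 2 lay among them (log2 change 0.42 ± 0.20, 95% interval −0.05 to 0.89, limma adjusted p = 0.326). Icos, the inducible costimulator of activated, follicular helper and regulatory T cells, was at 1.09, 0.834 and 0.718 FPKM against 1.72, 0.961 and 2.37 FPKM. It had the arrangement of Cd28 (log2 change 0.48 ± 0.22, 95% interval −0.04 to 1.00, limma adjusted p = 0.31), and the log2 change was 0.69 ± 0.18 without irradiated 2 and 0.30 ± 0.20 without irradiated 3 (limma adjusted p = 0.213 and 0.450). Icos is also a gene of type 2 innate lymphoid cells. Their 10 genes summed to 23.5 to 29.7 FPKM in the controls and 20.8 to 34.6 FPKM in irradiated lung, and the cytokine gene Il13 was at 0.0665 FPKM at most. Most of the sum was Hs3st1, at 14.1 to 20.6 against 11.3 to 22.1 FPKM. Of the 10, 5 were tested, 2 with positive and 3 with negative changes (median −0.18). The 2 were Calca (0.763 ± 0.0925 against 1.99 ± 0.471 FPKM) and Areg (2.81 ± 0.279 against 7.27 ± 4.12 FPKM). For both, every irradiated library was above the controls. Calca reached the test level only through the irradiated libraries, so its positive sign follows from that. The part of these cells in the Icos values was not tested. Genes of costimulatory and inhibitory ligands did not pass: Icosl was at 9.64 ± 1.95 against 11.5 ± 2.37 FPKM, Cd86 at 2.61 ± 0.0299 against 3.26 ± 0.635 FPKM, and Cd274, the ligand of the inhibitory receptor PD-1, at 6.41 ± 0.127 against 5.89 ± 1.32 FPKM (SD, n = 3).

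Foxp3 was the gene at the lowest level and the only 1 of the 10 whose groups did not overlap. It was at 0.160, 0.117 and 0.115 FPKM over controls 1 to 3, against 0.303, 0.416 and 0.828 FPKM over irradiated 1 to 3. Every irradiated library was above every control, including irradiated 2, which was low for the CD3 chains. Groups with all irradiated values higher were found for 8.26% of the 31967 genes with any value above 0. The exact two-sided permutation p was 0.1, the smallest that 3 against 3 libraries allow. In a limma fit with no minimum level the log2 change was 0.41 ± 0.14 and the adjusted p 0.385, and with a minimum mean of 0.1 FPKM the adjusted p was 0.222.

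The Foxp3 values rest on little sequence. The deposited coverage, the mean read depth per base, was 1.00, 0.789 and 0.678 over controls 1 to 3, against 1.76, 2.08 and 1.97 over irradiated 1 to 3. Divided by the coverage that 1 FPKM stands for in each library, it equals the FPKM within 2% in 4 libraries but gives 0.201 and 0.386 FPKM in irradiated 2 and 3. On that measure, added after the data were seen, the groups still did not overlap and the ratio of means was 2.27 in place of 3.95. Coverage is itself an uncertain measure, since for 6 of the other 9 genes it matched the FPKM in 0 libraries. Foxp3 shares 1341 bases with Flicr, a non-coding RNA gene on the same strand, which was at 0.119, 0.0401 and 0.127 FPKM over controls 1 to 3, against 0.121, 0.0870 and 0.184 FPKM over irradiated 1 to 3. These groups overlapped. Entries without a gene name on the strand of Foxp3 were left out of its values. The highest was at 0.336, 0.332 and 0.333 FPKM over controls 1 to 3, against 0.422, 0.373 and 0.837 FPKM over irradiated 1 to 3. These entries were unlike stretches. They shared 4561, 5161 and 3085 bases with Foxp3 in controls 1 to 3, against 6195, 15568 and 15568 bases in irradiated 1 to 3. Their levels are therefore not measures of the same stretch. Further such entries were at 0.263 and 0.259 FPKM in controls 1 and 2. In control 3 and irradiated 1 the further entry, at 0.127 and 0.121 FPKM, had the coordinates and the level of Flicr. The part of the unnamed entries in Foxp3 was not tested. The end of Foxp3 overlaps Ccdc22 on the other strand, and as no strand setting is known, reads of the pair cannot be told apart. Ccdc22 was at 6.73, 7.41 and 7.11 FPKM over the controls, against 6.53, 5.65 and 4.81 FPKM over irradiated 1 to 3, so every irradiated library was below the controls.

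**Figure D2:**
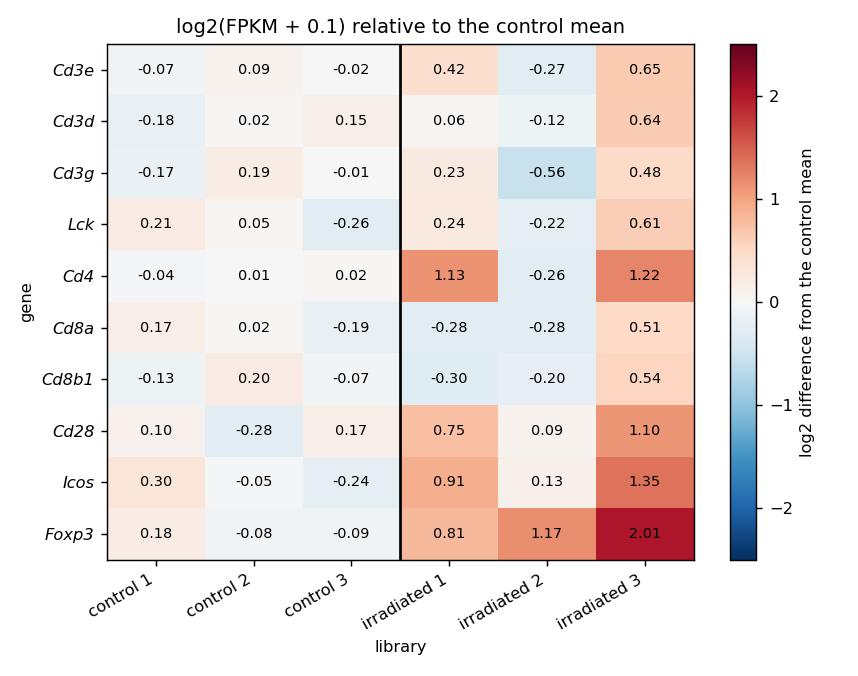
Difference of each gene from its control mean on the log2(FPKM + 0.1) scale, by library (columns) and gene (rows); red is higher and blue lower, and the value is printed in each cell. Irradiated 3 is positive in every row, irradiated 1 is negative only for Cd8a and Cd8b1, and the highest value of irradiated 2 is that of Foxp3 (1.17).

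In control lung the order of the mean levels was Cd3g, Lck, Cd8b1, Cd3d, Cd3e, Cd8a, Cd4, Cd28, Icos and Foxp3, from 8.80 ± 1.12 to 0.130 ± 0.0254 FPKM (SD, n = 3). Over the control libraries the ranges of Cd3g and Lck touched, those of Cd8b1, Cd3d and Cd3e overlapped in turn, and so did those of Cd3e and Cd8a and of Cd28 and Icos. Cd4 stood apart from Cd8a above it and Cd28 below it, and Foxp3 from Icos. In irradiated lung Cd4 stood at 3.58 ± 1.70 FPKM and Cd8a at 3.20 ± 1.12 FPKM, so their order by mean was turned. The spread of these 2 genes over the irradiated libraries was larger than the gap between them.

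The balance of helper, cytotoxic and regulatory genes was compared as 10 ratios within each library. The FPKM ratios do not depend on how a library was scaled, and the tested log2 ratios do so slightly, through the 0.1 FPKM added. Cd8a stood at 1.85, 1.597 and 1.36 times Cd4 over controls 1 to 3, against 0.578, 1.57 and 0.955 times Cd4 over irradiated 1 to 3. Irradiated 1 and 3 had less Cd8a per Cd4 than any control, and irradiated 2 lay within the control range (log2 difference −0.71 ± 0.42 SE, exact permutation p = 0.2, 0.6 adjusted over the 10 ratios). Cd8b1 over Cd4 was 1.94, 2.35 and 1.94 against 0.742, 2.17 and 1.26, with the same libraries low (−0.68 ± 0.44, exact permutation p = 0.3). Cd4 over Cd3e was 0.582, 0.540 and 0.587 against 0.951, 0.571 and 0.861, so irradiated 2 again lay among the controls (0.43 ± 0.22, exact permutation p = 0.3). Cd8a over Cd3e was 1.08, 0.863 and 0.801 against 0.550, 0.896 and 0.823, and only irradiated 1 was outside the control range. Without irradiated 2 the log2 difference was −1.06 for Cd8a over Cd4 and 0.64 for Cd4 over Cd3e, each with an exact permutation p of 0.1, the smallest that 3 against 2 libraries allow. Without irradiated 1 they were −0.37 and 0.29 (exact permutation p = 0.4 and 0.3).

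Relative to the cytotoxic gene the regulatory gene was higher in every irradiated library. Foxp3 stood at 0.0452, 0.0367 and 0.0422 times Cd8a over controls 1 to 3, against 0.118, 0.163 and 0.184 times Cd8a over irradiated 1 to 3. The log2 difference with 0.1 FPKM added to both genes was 1.35 ± 0.14 (exact permutation p = 0.1, 0.5 adjusted over the 10 ratios), and 0.78 ± 0.17 with Foxp3 taken from its coverage. Foxp3 over Cd3e was 0.0486, 0.0317 and 0.0338 against 0.0652, 0.146 and 0.152, also with no overlap (1.07 ± 0.36, and 0.50 ± 0.15 from coverage). With 1 FPKM added in place of 0.1, the log2 difference was 0.42 over Cd8a (exact permutation p = 0.1) and 0.19 over Cd3e (exact permutation p = 0.5), where the groups then overlapped. Foxp3 over Cd4 overlapped between the groups, at 0.0835, 0.0586 and 0.0575 against 0.0685, 0.256 and 0.176 (0.64 ± 0.52, and 0.07 ± 0.32 from coverage). Icos over Cd28 (log2 difference 0.15 ± 0.22) and Lck over Cd3e (−0.06 ± 0.17) overlapped as well. In all, 2 of the 10 ratios had groups that did not overlap and 8 did overlap, and 0 passed after adjustment, which 3 against 3 libraries cannot reach.

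**Figure D3:**
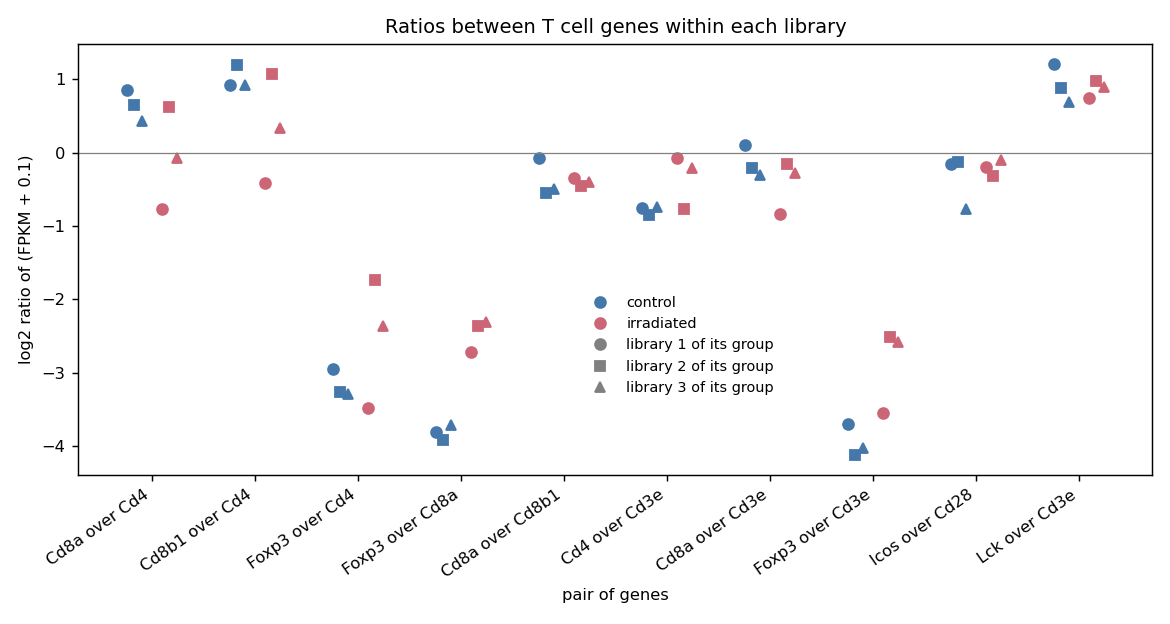
Log2 ratio between pairs of T cell genes (vertical axis, FPKM + 0.1) within each control (blue) and irradiated (red) library; the marker shape is the library number and the grey line marks equal levels. Foxp3 over Cd8a and Foxp3 over Cd3e separate the groups, while for Cd8a over Cd4 irradiated 1 and 3 are low and irradiated 2 lies with the controls.

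The constant regions of the receptor check that αβ receptor transcripts were present. Trac, the α chain constant region, was at 7.88, 8.32 and 7.66 FPKM over controls 1 to 3, against 11.4, 6.79 and 14.01 FPKM over irradiated 1 to 3, the arrangement of Cd3e (log2 change 0.34 ± 0.23, limma adjusted p = 0.479). The β chain regions Trbc1 (9.53 ± 0.982 against 10.5 ± 3.59 FPKM) and Trbc2 (14.4 ± 2.79 against 15.7 ± 4.42 FPKM) are near-identical copies that may share reads. Cd247, the ζ chain, was at 5.805 ± 1.62 against 5.30 ± 1.20 FPKM. The γδ constant region Trdc was at 2.10, 2.07 and 1.95 FPKM against 4.15, 2.87 and 3.63 FPKM, with every irradiated library above the controls (log2 change 0.57 ± 0.14, limma adjusted p = 0.121). γδ cells carry CD3 chains too, and their part in the CD3 values was not tested. Of 8 genes listed for thymus and lymph node, Rag1, Rag2, Ptcra and Arpp21 were at 0.0446, 0.0116, 0.0730 and 0.0027 FPKM at most. Dntt and Glycam1 were at 0.190 and 0.134 FPKM at most. Themis was at 0.619 ± 0.328 against 0.869 ± 0.320 FPKM, and Cd1d1 at 7.26 ± 1.69 against 4.84 ± 1.34 FPKM.

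The genes that act downstream of the receptor mostly had positive changes, none of which passed the test. Of 24 signalling genes 20 were tested, 16 had positive changes and the median log2 change was 0.17. None passed over all genes with limma, and 6 were higher at an unadjusted p under 0.05, where 7.41% of all tested genes were. For 6 the irradiated libraries all lay above the controls, where 9.91% of all tested genes did so. For 1, the adhesion receptor Cd2, they all lay below (15.8 ± 1.27 against 11.8 ± 2.94 FPKM). The smallest p belonged to Ptpn22, a phosphatase that limits receptor signalling (2.93 ± 0.274 against 5.23 ± 0.992 FPKM, log2 change 0.66 ± 0.14, limma adjusted p = 0.0999). Next came the adaptor Lcp2 (4.03 ± 0.119 against 6.49 ± 1.05 FPKM) and the exchange factor Vav1 (4.32 ± 0.270 against 7.93 ± 1.90 FPKM). These 3 genes are expressed in other leukocytes too, Lcp2 and Vav1 in myeloid cells among them. For each of the 3, irradiated 2 was above every control, which it was not for any CD3 chain. A list of 11 neutrophil and red cell genes summed to 1420 to 2201 FPKM in the controls. Over irradiated 1 to 3 it summed to 1654, 10893 and 2997 FPKM. Red cell genes are a large part of that sum. Hbb-bs, 1 of them, was at 654 to 811 FPKM in the controls, against 700, 3178 and 767 FPKM over irradiated 1 to 3. The neutrophil gene S100a8 was at 27.2 to 199 FPKM against 75.0, 2029 and 510 FPKM. The part of either cell type in the signalling genes was not tested.

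Among genes of helper lineages 7 of 14 were tested, 5 had positive changes and the median was 0.25. Cxcr3, a chemokine receptor of type 1 helper and cytotoxic cells, was at 1.62 ± 0.139 against 2.702 ± 1.31 FPKM. Zbtb7b, the factor that directs cells to the helper lineage, was at 11.4 ± 0.531 against 13.96 ± 3.11 FPKM. It stood far above Cd4 (1.97 ± 0.0475 FPKM in control lung) and was highest in irradiated 2 (17.4 FPKM), where Cd4 was lowest (1.63 FPKM). The part of other cell types in Zbtb7b was not tested. None of the 7 passed with limma, and 0 were past an unadjusted p of 0.05, where 17.7% of all tested genes were.

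Genes of the cytotoxic programme mostly had negative changes, and their difference from Cd8a and Cd8b1 was not tested. Of 10 genes 6 were tested and 5 of these had negative changes, with a median of −0.63. For those 5 the irradiated libraries all lay below the controls, where 14.6% of all tested genes did so. None passed over all genes with limma, and 5 were lower at an unadjusted p under 0.05, where 10.3% of all tested genes were. The remaining tested gene, Runx3, a transcription factor of cytotoxic T cells, had every irradiated library above the controls (1.26 ± 0.187 against 1.81 ± 0.320 FPKM). Gzma, a granule protease, was at 23.4, 25.4 and 30.9 FPKM over controls 1 to 3, against 10.8, 11.5 and 4.33 FPKM over irradiated 1 to 3 (log2 change −1.57 ± 0.33, limma adjusted p = 0.102). Gzmb, another granule protease, was at 3.80 ± 0.556 against 1.73 ± 0.523 FPKM and Prf1, the pore-forming perforin, at 3.22 ± 0.188 against 1.77 ± 0.456 FPKM. Gzma, Gzmb and Prf1 were each lowest in irradiated 3, where Cd8a and Cd8b1 were highest. NK cells make the same proteins, and of 10 tested NK genes, 2 of them shared with this list, 8 had negative changes, with a median of −0.59. Ncr1, an activating receptor that marks NK cells, was at 3.27, 2.99 and 3.28 FPKM against 1.73, 1.90 and 1.01 FPKM. The summed level of the list did not follow, at 97.9 to 127 FPKM against 82.5 to 176 FPKM, and its member Tyrobp, an adaptor that myeloid cells also carry, was at 144 FPKM in irradiated 2. The part of NK cells in these values was not tested.

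Genes that regulatory T cells share with activated T cells had positive changes in 5 of 5 tested, of 13 listed, with a median of 0.34. Of all tested genes 44.2% had a positive change. The share cannot be set against the 5 as they stand, since the positive sign of 1, Ctla4, follows from how it reached the test level. Among the 5 was Lrrc32, at 10.6 ± 0.576 against 11.1 ± 0.436 FPKM (log2 change 0.06 ± 0.08). Foxp3 was at 0.130 ± 0.0254 FPKM in control lung, far below Lrrc32, and the part of other cell types in Lrrc32 was not tested. Ctla4, the inhibitory receptor that lies between Cd28 and Icos, was at 0.398, 0.455 and 0.857 FPKM over controls 1 to 3, against 2.53, 1.14 and 4.11 FPKM over irradiated 1 to 3. All 3 irradiated libraries were above the controls (log2 change 1.12 ± 0.32, limma adjusted p = 0.162), and the gene reached the test level only through them. Tnfrsf18, a receptor of the TNF receptor family, was at 3.29 ± 0.793 against 4.47 ± 1.27 FPKM, and Areg, a growth factor also made by other cell types, at 2.81 ± 0.279 against 7.27 ± 4.12 FPKM. None of the 5 passed with limma, and Ctla4 and Areg were higher at an unadjusted p under 0.05, where 7.41% of all tested genes were. For Ctla4 that direction again follows from how it reached the test level. Of the 8 genes below the test level, Il2ra and Tigit, named after their values were seen, had irradiated libraries all above the controls, as 8.26% of the 31967 genes with any value did. The other 6 (Ikzf2, Ikzf4, Tnfrsf9, Ccr8, Il10 and Il1rl1) overlapped, and Ikzf2, Ccr8 and Il10 had lower means in irradiated lung. Tigit, an inhibitory receptor, was at 0.610, 0.0871 and 0.124 FPKM against 1.34, 0.835 and 0.978 FPKM. Il2ra, the high-affinity interleukin-2 receptor chain, was at 0.485, 0.412 and 0.431 FPKM against 0.886, 0.493 and 0.885 FPKM.

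**Figure D4:**
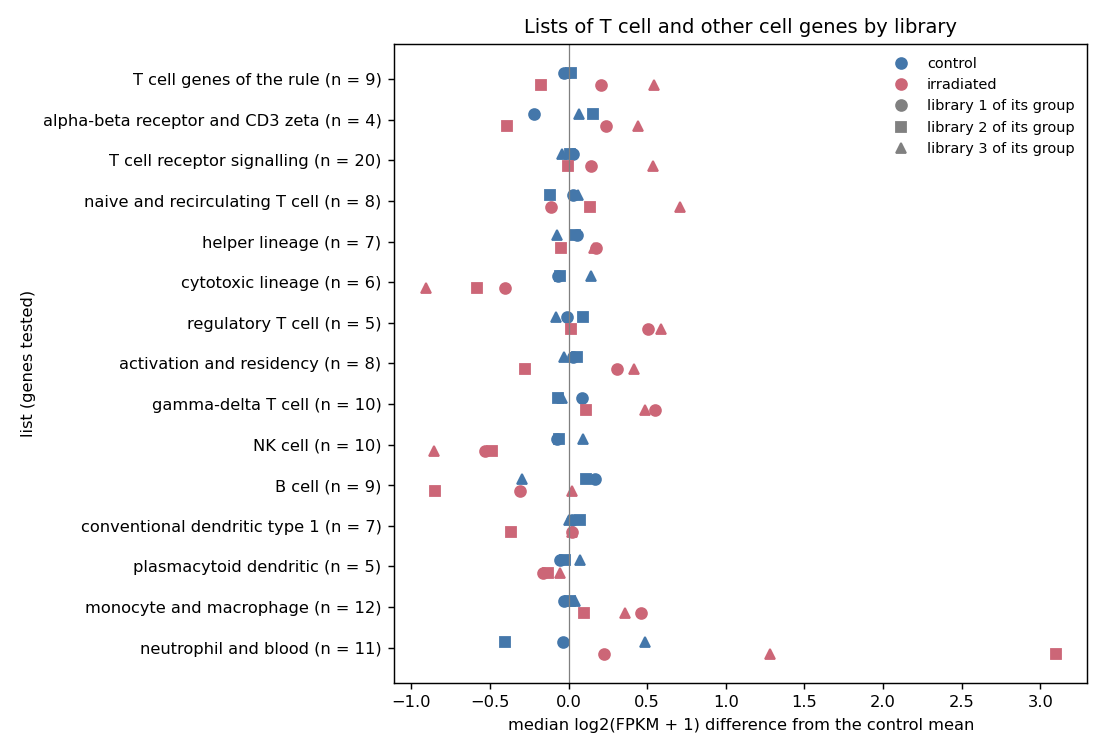
Median difference from the control mean over the tested genes of each list (horizontal axis, log2(FPKM + 1)), by library; control is blue, irradiated red, and the marker shape is the library number. For the 9 tested T cell genes irradiated 1 and 3 lie to the right (0.21 and 0.54) and irradiated 2 to the left (−0.18) of the controls, the cytotoxic and NK lists are left in all 3, and neutrophil and blood genes are highest in irradiated 2 (3.10).

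Across the 6 libraries, the profile of the CD3 chains was compared with that of the other tested genes by the root mean square difference of centred log2(FPKM + 1) values. The nearest 5 of 13905 genes were Gm14295 (0.06), Thy1 (0.07), Snord4a (0.08), Ggact (0.08) and 2510002D24Rik (0.08). Thy1 encodes a surface glycoprotein of T cells that fibroblasts also carry, and it was at 10.5, 12.02 and 12.1 FPKM over controls 1 to 3, against 12.7, 8.39 and 14.8 FPKM over irradiated 1 to 3. Among the T cell genes Lck was closest to the CD3 chains (0.17), then Cd8b1 (0.18), Cd28 (0.19), Cd8a (0.21), Icos (0.22) and Cd4 (0.26). With 6 libraries many genes share a profile, and Lck had rank 667.

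The libraries themselves differed in depth and content. The deposited values imply 5.11 to 10.4 Gb of aligned sequence per library, with irradiated 2 the deepest, and 13467 to 14050 genes reached 1 FPKM. Sftpc, the surfactant protein C gene, was at 14677 to 16828 FPKM in the controls and 8741 to 9588 FPKM in irradiated lung. For Sftpc and the epithelial genes Sftpb and Scgb1a1 every irradiated library was below the controls, as for 14.6% of all tested genes. The ratios of means were 0.584, 0.777 and 0.569, and none passed with limma. The groups overlapped for the epithelial genes Ager, Hopx and Epcam. Without irradiated 2, 0 of the 9 T cell genes tested passed over all genes with limma.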

How the data were processed

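Per the labels' protocols, RNA of lung tissue was extracted with TRIzol and polyA libraries were read on a DNBSEQ-T7. STAR 2.7.6a, fastp and DESeq2 and the build GRCm39 are listed, without role or order, in the submitters' processing notes. Quantifier, strand setting and annotation: not given in the sources used here. The values are FPKM as deposited by the authors, summed per gene identifier over named rows. The deposited coverage signal was used for depth and for a check of Foxp3. The deposited TPM column was not used, as it sums to about double its nominal total.

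Groups follow the sample titles. The test was limma 3.58.1 in R 4.3.3, with a mean-variance trend and robust variances, on log2(FPKM + 1), group as the only term, Benjamini-Hochberg adjustment over the 13908 genes whose mean reached 1 FPKM. The procedure was tested on simulated data. Within-library ratios used log2(FPKM + 0.1) and an exact two-sided permutation test over libraries. The 19 other gene lists hold genes of T cell functions and of other cell types, and together with the 10 genes they name 198 genes, all matched, 5 of them by a synonym. The genes and lists were chosen with earlier results of these data known. Beside the 10 genes, the text names up to 3 genes per list with the smallest p, the receptor constant regions and the 5 nearest profiles, and some genes of this rule are not reported here; others mark a cell type or, as Cd2, Runx3 and the regulatory genes below the test level, were named after their values were seen. No counting interval is given, since FPKM hold no counts; the error of low values is the larger. Other filters, pseudocounts, scalings, variance estimates, a replicate block and leaving out each library were tried. Python 3.11.15, numpy 2.4.6, pandas 2.3.3, scipy 1.17.1 and matplotlib 3.10.9 were used.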

Additional observations from a re-analysis of the deposited data

How the results depend on the processing

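Under the 16 alternatives of the limma fit 0 of the T cell genes that each could test passed; Foxp3 was tested in the 2 with a lower minimum, and only Cd3g and Lck with 5 FPKM. The number of all genes that passed was 25, and it was 0 with no minimum level, 13 with a minimum mean of 0.1 FPKM, 38 with 5 FPKM, 11 with median-ratio scaling, 14 with a common sum and 0 with the replicate number as a block; leaving out each library in turn gave 0 to 116 (0, 1 and 0 without control 1, 2 and 3, and 100, 3 and 116 without irradiated 1, 2 and 3). The deviations of same-numbered libraries from their group means correlated at −0.17, −0.54 and −0.28 over genes, and those of differently numbered libraries at −0.28 to 0.52. Deviations within a group of 3 depend on each other, so these values cannot decide whether the numbers pair the libraries. The log2 change of Cd8a, −0.01, turned to 0.023 with median-ratio scaling, 0.0039 with upper-quartile scaling and 0.10 with a common sum, and ranged from −0.22 to 0.10 without each library. Without each library, the log2 changes ranged from −0.025 to 0.29 for Cd3d, −0.15 to 0.33 for Cd3g and −0.20 to 0.15 for Cd8b1, so each has no stable sign. The log2 difference of Foxp3 over Cd4 was −0.14 with 1 FPKM added in place of 0.1. Without each library Cd8a over Cd8b1 ranged from −0.12 to 0.12, Icos over Cd28 from −0.060 to 0.26 and Lck over Cd3e from −0.18 to 0.084. The cause of these turns was not tested. Cd3e, Lck, Cd4, Cd28 and Icos kept a positive sign under every alternative that tested them, but without each library they ranged from 0.066 to 0.44 for Cd3e, 0.0059 to 0.38 for Lck, 0.35 to 0.91 for Cd4, 0.26 to 0.60 for Cd28 and 0.30 to 0.69 for Icos, lowest without irradiated 3 in each. The ratios Cd8a over Cd4, Cd8b1 over Cd4, Cd4 over Cd3e, Cd8a over Cd3e, Foxp3 over Cd8a and Foxp3 over Cd3e kept their sign under all their alternatives, though the last 2 moved from 1.35 to 0.42 and from 1.07 to 0.19 with 1 FPKM added.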

Other observations

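Genes of organised lymphoid tissue in the lung went both ways. Cxcl13, a chemokine that draws B cells and follicular helper T cells, was at 1.47, 2.20 and 2.13 FPKM over controls 1 to 3, against 12.6, 2.12 and 11.8 FPKM over irradiated 1 to 3, so irradiated 1 and 3 were high and irradiated 2 lay among the controls (log2 change 1.49 ± 0.56, limma adjusted p = 0.252). Ccl21a, a chemokine that guides naive T cells and dendritic cells, was at 66.0, 56.8 and 53.2 FPKM against 40.7, 29.5 and 33.2 FPKM, with every irradiated library below the controls (−0.76 ± 0.14, limma adjusted p = 0.0793). Of the 8 listed genes 5 were tested and 2 had positive changes, with a median of −0.09. The 9 B cell genes all had negative changes (median −0.44), and for 0 of them did the groups separate, where 24.5% of all tested genes did. Cr2, a complement receptor of B cells and follicular dendritic cells, was at 1.81 ± 0.250 against 1.07 ± 0.563 FPKM.

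Genes of naive and recirculating T cells had positive changes in 7 of 8 tested, with a median of 0.22. Il7r, the interleukin-7 receptor chain that T cells and innate lymphoid cells need to survive, was at 6.65, 6.06 and 6.73 FPKM over controls 1 to 3, against 10.8, 7.73 and 16.995 FPKM over irradiated 1 to 3, with no overlap (log2 change 0.72 ± 0.25, limma adjusted p = 0.214). Among activation and residency genes 6 of 8 tested had positive changes (median 0.17). Cd44, an adhesion receptor of activated and memory T cells and of many other cells, was at 25.8 ± 1.68 against 36.6 ± 9.79 FPKM, and Havcr2, the inhibitory receptor TIM-3, at 3.19 ± 0.386 against 3.95 ± 0.319 FPKM. Pdcd1, the gene of PD-1, was below the test level and was named after its values were seen: it was at 0.0862, 0.268 and 0.276 FPKM over the controls, against 1.56, 0.432 and 1.08 FPKM over irradiated 1 to 3, again with no overlap.

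Of the γδ T cell genes 8 of 10 tested had positive changes, with a median of 0.34, and Trgv6 and Cd163l1 had log2 changes of 0.74 ± 0.14 and 1.07 ± 0.21 (limma adjusted p = 0.0793 and 0.0836). Trgv6, with a control mean of 0.505 ± 0.114 FPKM, and 1 other of the 10 reached the test level only through the irradiated libraries. The positive signs of both follow from that. No gene of any of these lists passed over all genes with limma.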
